A study of Mus musculus with 44 samples.

Results

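A group of 7 transcripts that stood higher in two-cell mouse embryos without Dppa2 and Dppa4 than in wild-type embryos were examined across 44 single embryos. They are *Prr23a1*, *Tuba3b*, *Abcb9*, *Gm3550*, *B9d1*, *Cadm4* and *Gm42467*, 7 of 35269 genes in the deposited table and 7 of the 16412 that passed the filter on low values. They were selected on these embryos, because their mean was higher in null than in wild-type embryos in both litters of each. The difference between null and wild-type embryos is therefore given below as a description, and the heterozygous embryos and the sequences are what the choice did not use.

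Each library was made from the poly(A) RNA of 1 two-cell embryo collected from natural matings in the C57Bl/6 background, and was sequenced in paired reads. The 14 WT embryos (10 and 4 from 2 litters) came from Dppa2/4+/+ females and Dppa2/4+/+ males. The other embryos had mothers in which a floxed stretch from exon 2 of *Dppa4* to exon 7 of *Dppa2* was deleted in the growing oocyte by Cre under the *Zp3* promoter, so that the egg lacked the maternal stores. With Dppa2/4+/+ fathers these gave the 15 HET1 embryos (Dppa2/4+/-, 7 and 8 from 2 litters). With Dppa2/4+/- fathers they gave, in the same 2 litters, 5 HET2 embryos (Dppa2/4+/-, 4 and 1) and 10 HOM embryos (Dppa2/4-/-, 3 and 7). HET1 and HET2 embryos thus share their genotype and the maternal deletion, and differ in the father and the litter. The authors told HET2 from HOM by the embryos' own *Dppa2* and *Dppa4* reads. Apart from HET2 and HOM, each litter holds 1 group, and group and litter cannot be told apart.

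*Dppa2* and *Dppa4* encode a pair of small nuclear proteins that bind chromatin together and are known from embryonic stem cells as activators of transcripts of the two-cell stage. At that stage the mouse embryo degrades RNA laid down in the oocyte and begins major transcription of its own genome. The 7 transcripts belong to no common pathway. *Tuba3b* encodes an alpha-tubulin, which pairs with beta-tubulin in microtubules. *B9d1* encodes a B9 domain protein of the ciliary transition zone, the gate at the base of the cilium. *Abcb9* encodes a peptide transporter of the lysosome membrane and *Cadm4* an immunoglobulin-like adhesion molecule of the cell surface. *Prr23a1* encodes a proline-rich protein, and *Gm3550* and *Gm42467* carry only predicted-gene names.

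The genes lie on 6 chromosomes (GRCm38, GENCODE annotation, with the same coordinates in the deposited table). *Prr23a1* is a protein-coding gene of 1 exon on the forward strand at chr9:98842503-98843385. *Tuba3b* is a protein-coding gene with 5 exons on the forward strand at chr6:145615757-145621479. *Abcb9* is protein-coding on the reverse strand at chr5:124061530-124095798, and *B9d1* and *Cadm4* are protein-coding on the forward strand at chr11:61505144-61512931 and chr7:24482023-24504539. *Gm42467*, of the GENCODE class TEC with 1 exon, lies on the forward strand at chr5:130226216-130227662.

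Promoter sequences were matched by symbol for 5 of the 7 genes (RefSeq, GRCm38.p6). They are shown because base composition upstream of the gene took no part in the choice of the genes. Each line is the strand of the gene, 5′ to 3′, ending at the base before the annotated start, with every CG dinucleotide in capitals. The intervals are chr9:98842383-98842502 (forward strand), chr6:145615713-145615756 (forward), chr5:124095799-124095918 (reverse), chr11:61505024-61505143 (forward) and chr7:24481903-24482022 (forward).
Prr23a1: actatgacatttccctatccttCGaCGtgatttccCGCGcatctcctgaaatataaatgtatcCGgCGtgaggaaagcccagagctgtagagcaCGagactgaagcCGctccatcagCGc
Tuba3b: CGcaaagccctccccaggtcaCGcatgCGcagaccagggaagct
Abcb9: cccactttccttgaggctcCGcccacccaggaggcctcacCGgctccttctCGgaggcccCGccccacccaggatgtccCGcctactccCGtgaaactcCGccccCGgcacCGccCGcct
B9d1: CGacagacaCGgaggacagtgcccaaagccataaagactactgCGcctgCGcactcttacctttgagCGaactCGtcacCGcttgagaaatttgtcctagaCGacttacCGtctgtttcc
Cadm4: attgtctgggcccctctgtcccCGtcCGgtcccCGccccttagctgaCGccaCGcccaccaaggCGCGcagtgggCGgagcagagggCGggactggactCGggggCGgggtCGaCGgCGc

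In the 250 bases before the RefSeq start, the motif CG (read on 1 strand, since it is its own reverse complement) occurred 30 times for *Cadm4*, 23 times for *Prr23a1*, 18 times for *B9d1*, 17 times for *Abcb9* and 14 times for *Tuba3b*. For *Prr23a1* and *Tuba3b* the RefSeq start lies inside the GENCODE gene, so that 84 and 206 of the 250 bases are transcribed in the GENCODE model. The median was 6 over all 32851 promoters and 14 over the 14508 promoters of tested genes. As many CG or more were held by 10.4% of the promoters of tested genes for *Cadm4*, 23.6% for *Prr23a1*, 38.5% for *B9d1*, 41.8% for *Abcb9* and 51.9% for *Tuba3b*. The 5 promoters thus ranged from the middle of the tested genes to their upper part.

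Some of these genes overlap other genes or share sequence with them. Of the stretches of 75 bases in the *Gm3550* transcript, 43.4% also occur on either strand in transcripts of other genes. Among these are *Cdc25c*, a phosphatase of the cell cycle, *Gm43471* and *Rpl29*. *Gm3550*, annotated as protein-coding with 1 exon on the forward strand at chr18:34736359-34738014, lies wholly within *Cdc25c* on the opposite strand, and 623 of its exonic bases (37.6%) are also exon of *Cdc25c*. The reads were counted without regard to strand, so reads of the pair cannot be told apart there. Within groups and litters the 2 genes showed a Pearson r of 0.00 over 43 embryos. The mean of *Cdc25c* was 6.50 log2 RPM in WT, 6.66 in HET1, 6.67 in HET2 and 7.22 in HOM, so it was highest in HOM as well, and its part in the *Gm3550* values was not tested. *Tuba3b* shares 18.9% of its stretches with *Tuba3a* and *Gm5366*, and *Prr23a1* shares 18.2% with *Prr23a2* and *Prr23a3*. These genes lie at other loci, and only reads with a MAPQ of at least 20 were kept, which drops reads placed equally well at several loci. The shares therefore do not measure reads counted from those genes. *Abcb9* overlaps the antisense gene *Gm34086* by 162 exonic bases (2.89%). *Gm42467* lies within the span of *Tmem248* on the same strand with 0 exonic bases in common, so that unspliced *Tmem248* RNA would be counted in it, and r between the 2 genes was -0.45. *B9d1*, *Cadm4* and *Gm42467* shared 0 stretches with other annotated transcripts.

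The values are log2 RPM, the reads of a gene scaled to the total reads of the embryo. Total reads per embryo were 637704 to 3163026 in WT (median 1770010), 247667 to 1830316 in HET1 (528166), 698469 to 2136068 in HET2 (1108889) and 418558 to 3048642 in HOM (803369). A gene without reads holds the value of 0.9 read, which runs from -1.81 in the deepest to 1.86 in the shallowest embryo. All values below 1.86 were therefore raised to that common floor, unless deposited values are named. *Dppa2* had 184 to 2144 reads in WT embryos and 0 to 7 in HOM embryos, and all 6 markers of the two-cell stage, among them *Zscan4c* and *Zfp352*, had reads. Their summed RPM had a median of 417 in WT, 863 in HET1, 552 in HET2 and 623 in HOM, and that of 6 oocyte transcripts 1948, 2945, 2391 and 2425. The part of these differences in the results below was not tested. *Ovgp1*, a secreted product of the oviduct, had 41 to 1597 reads in the 4 embryos of the second WT litter, 0 to 84 in the first and 0 to 9 elsewhere. The other markers of that list were *Foxj1*, *Pax8* and *Muc1*. The summed RPM of these 4 oviduct markers was 0 to 1512 in WT, 0 to 1.92 in HET1, 0 to 8.16 in HET2 and 0 to 1.48 in HOM. The median difference between HOM and WT over the 7 genes was 1.70 on the log2 scale with all WT embryos, 1.67 without the embryo with 1597 reads and 1.55 without the second WT litter, 2 alternatives added after seeing the data. Of 6 spermatid markers *Tnp1*, *Tnp2*, *Akap4* and *Odf1* had 0 reads, and the summed level of all 6 was at most 0.706 RPM in any embryo. The 7 markers of cumulus and granulosa cells summed to at most 17.7 RPM, with *Fshr* at 0 reads, and the 3 blood markers to at most 4.15 RPM, with *Ptprc* at 0 reads.

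*Prr23a1*, *Tuba3b* and *B9d1* were detected, with at least 1 read, in 12 of 14 WT embryos each and in every HET1, HET2 and HOM embryo. *Gm3550* was detected in 10 WT, 13 HET1, 5 HET2 and 10 HOM embryos. *Abcb9* was detected in 9 WT, 14 HET1, 3 HET2 and 9 HOM embryos. *Cadm4* was detected in 5 WT, 7 HET1, 2 HET2 and 8 HOM embryos, and *Gm42467* in 1, 0, 2 and 6. Over all genes and embryos, 230 of 308 pairs of a gene and an embryo had at least 1 read and 194 had at least 3.

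The median depth was highest in WT, so detection was also compared at equal depth. With each embryo thinned to the 247666 reads of the shallowest, the expected share of embryos with a *Prr23a1* read was 63.9% in WT, 97.9% in HET1, 94.2% in HET2 and 98.2% in HOM. *Cadm4* was then expected in 4.59% of WT, 21.2% of HET1, 9.41% of HET2 and 51.8% of HOM embryos. *Abcb9* stood at 20.98%, 65.2%, 46.3% and 76.3% in the same order. In the plot of detection both heterozygous groups lie between WT and HOM after thinning for each gene but *Gm42467*. There HET1 lies below WT. For *B9d1* the expected share was 99.8% in both HET1 and HOM, and for *Tuba3b* 99.8% in both HET2 and HOM. With HOM near the ceiling for these genes and *Prr23a1*, no group could lie clearly above it, and this order is not one of levels. The WT and HOM embryos also took part in the choice of the genes.

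**Figure D1:**
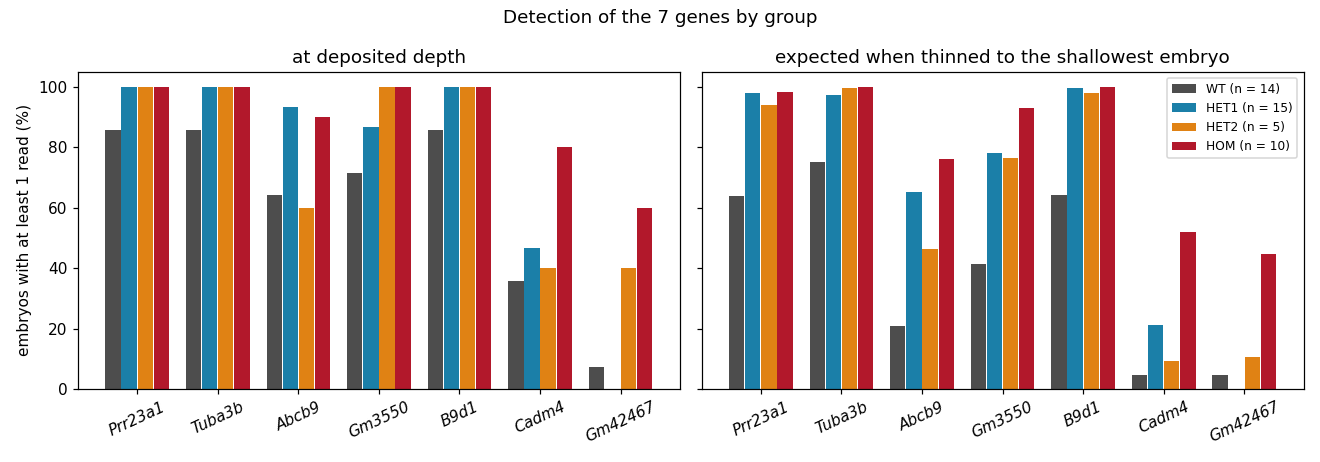
Share of embryos (%, vertical axis) in which each of the 7 genes had at least 1 read, by group (WT n = 14, HET1 n = 15, HET2 n = 5, HOM n = 10). The left panel shows the embryos at their own depth and the right panel the share expected after thinning to 247666 reads, where *Cadm4* stands at 4.59% in WT and 51.8% in HOM.

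The number of these 7 genes detected per embryo had a median of 4.5 in WT (range 2 to 6), 5 in HET1 (3 to 6), 5 in HET2 (4 to 7) and 6.5 in HOM (4 to 7). All 7 were detected together in 5 of 10 HOM embryos, in 1 of 5 HET2 embryos and in 0 of 14 WT and 0 of 15 HET1 embryos. At least 6 were detected in 9 HOM, 2 HET2, 6 HET1 and 4 WT embryos.

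*Prr23a1*, *Tuba3b* and *B9d1* stood above the floor in 9, 10 and 8 of 14 WT embryos. *Prr23a1* ran from 1.86 to 4.71 log2 RPM in WT (median 2.34, 0 to 42 reads), from 2.94 to 6.06 in HET1 (median 4.50, 4 to 47 reads) and from 2.78 to 6.19 in HOM (median 5.19, 12 to 88 reads). The HET2 embryos held 3.15, 2.66, 6.10, 6.75 and 3.80 log2 RPM, from 19, 7, 48, 119 and 24 reads. Of these 5 embryos, 2 stood above every WT embryo and the others within the WT range. Above the highest WT embryo lay 7 of 15 HET1 and 7 of 10 HOM embryos, so the groups overlapped.

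*Tuba3b* ran from 1.86 to 6.01 log2 RPM in WT (median 4.09, 0 to 142 reads), from 1.86 to 7.20 in HET1 (median 5.19, 5 to 103 reads) and from 4.01 to 7.50 in HOM (median 6.19, 22 to 126 reads). In HET2 it stood at 4.11, 4.94, 7.58, 7.25 and 4.70. The same 2 HET2 embryos that were high in *Prr23a1*, both of the first litter, were high in *Tuba3b*. The lowest HOM embryo lay near the WT median, and 7 of 10 HOM, 2 of 5 HET2 and 3 of 15 HET1 embryos exceeded the highest WT embryo.

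The mean of *B9d1* was 3.06 log2 RPM in WT, 5.76 in HET1, 5.13 in HET2 and 5.07 in HOM, with the highest of the 4 in HET1. It ran from 1.86 to 4.99 log2 RPM in WT (median 2.88, 0 to 50 reads), from 3.78 to 7.55 in HET1 (median 5.72, 11 to 101 reads) and from 4.15 to 6.65 in HOM (median 4.82, 11 to 79 reads). The HET2 embryos held 4.99, 4.31, 7.20, 6.01 and 3.12. Of the HET1 embryos 11 of 15 exceeded the highest WT embryo, against 4 of 10 HOM and 2 of 5 HET2 embryos. The SD over embryos was 0.796 in HOM, against 1.27 in WT, 1.23 in HET1 and 1.57 in HET2.

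*Abcb9* and *Gm3550* rested on few reads. *Abcb9* had 0 to 14 reads in WT (median 1), 0 to 17 in HET1 (median 3) and 0 to 26 in HOM (median 10.5), and 18, 0, 5, 3 and 0 in HET2. Above the common floor stood 2 of 14 WT, 7 of 15 HET1, 2 of 5 HET2 and 7 of 10 HOM embryos, with the highest HOM embryo at 4.98 log2 RPM. *Gm3550* had 0 to 24 reads in WT (median 4), 0 to 16 in HET1 (median 5), 3 to 40 in HOM (median 15.5) and 30, 7, 1, 5 and 18 in HET2. Its levels were 1.86 to 3.95 in WT, 1.86 to 4.85 in HET1, 1.86 to 3.81 in HET2 and 2.17 to 5.61 in HOM. HET2 embryos of *Gm3550* all lay within the WT range, whereas 6 of 10 HOM embryos lay above it.

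*Cadm4* and *Gm42467* were at the limit of detection. *Cadm4* had at most 2 reads in a WT embryo and 7, 0, 7, 1, 5, 2, 7, 5, 3 and 0 reads in the 10 HOM embryos. Of the HOM embryos 3 stood above the floor. In HET1 the reads were 3, 1, 1, 0, 5, 1 and 1 in the first litter and 0, 0, 2, 0, 0, 0, 0 and 0 in the second, and in HET2 1, 0, 1, 0 and 0. Detection in HET1 thus lay mostly in 1 litter, 6 of 7 embryos against 1 of 8.

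*Gm42467* had 19, 7, 0, 0, 11, 5, 3, 1, 0 and 0 reads in the HOM embryos, 5 in a single WT embryo, and 3, 1, 0, 0 and 0 in HET2. It had 0 reads in all 15 HET1 embryos, whose 11457846 total reads together allow a level of up to 0.262 RPM (3 counts over the group, counting error only). Pooled over the group, HOM embryos held 3.94 RPM, HET2 embryos 0.591 RPM and WT embryos 0.201 RPM. In the deposited values the mean of *Gm42467* was nevertheless 0.49 log2 RPM in HET1 and -0.62 in WT, a difference of 1.11 between a group without reads and a group with 5 reads in 1 embryo. On the common floor that difference was 0.00.

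**Figure D2:**
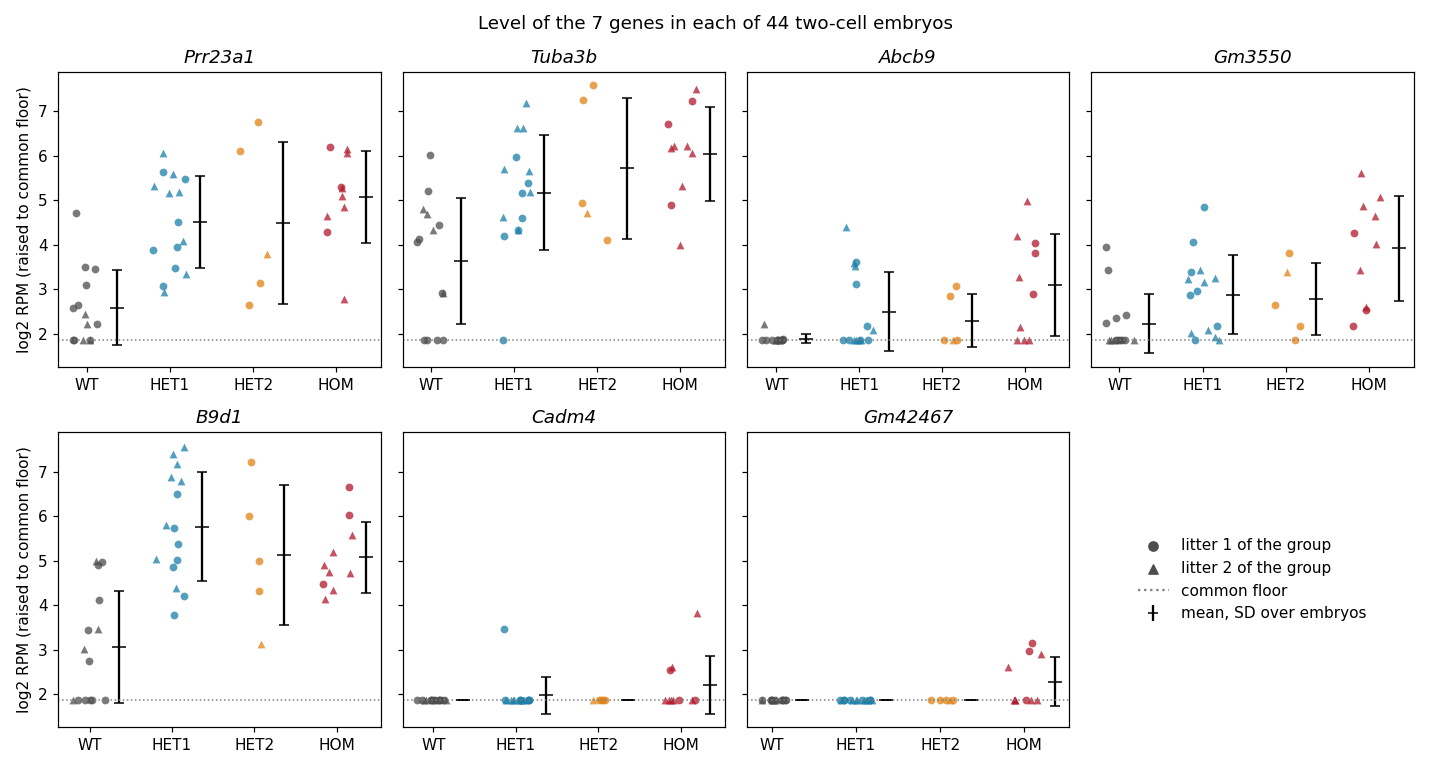
Level of each gene (log2 RPM raised to the common floor of 1.86, vertical axis) in every embryo by group. Circles and triangles are the first and second litter of a group, black marks the mean with its SD over embryos, and the dotted line the floor, on which all HET1 embryos sit for *Gm42467* and all WT and HET2 embryos for *Cadm4*.

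Per length of exon, the pooled level in HOM embryos was 35.4 RPM per kilobase of exon (RPKM) for *Prr23a1*, 34.0 for *Tuba3b*, 21.1 for *B9d1*, 9.11 for *Gm3550*, 2.73 for *Gm42467*, 1.65 for *Abcb9* and 1.47 for *Cadm4*. In WT embryos *Tuba3b* was the highest at 11.7 RPKM, followed by *Prr23a1* at 6.88 and *B9d1* at 5.94. In HET1 embryos *B9d1* led with 36.7 RPKM, ahead of *Prr23a1* at 27.1 and *Tuba3b* at 23.9. With SDs over embryos of 0.796 to 1.83 on the log2 scale for these 3 genes, their order within a group was not resolved.

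The values that chose the genes were as follows. The mean deposited log2 RPM was higher in HOM than in WT by 3.04 for *Prr23a1*, 2.90 for *Tuba3b*, 2.87 for *Abcb9*, 2.85 for *Gm3550*, 2.67 for *B9d1*, 2.29 for *Cadm4* and 2.09 for *Gm42467*. On deposited values 10 genes (0.0609% of those tested) passed the threshold as higher in HOM, the 7 members and *Cdkn1a*, *Comtd1* and *Tubb5*. Just outside the smallest member lay *Comtd1* with 2.06. Both null litters averaged above both WT litters for 5367 genes (32.7%) on deposited values and for 3443 (20.98%) on the common floor, so that this condition by itself was not rare.

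On the common floor, where the value of a gene without reads is the same in every embryo, the difference was 2.48 for *Prr23a1*, 2.39 for *Tuba3b*, 2.02 for *B9d1*, 1.70 for *Gm3550*, 1.21 for *Abcb9*, 0.42 for *Gm42467* and 0.34 for *Cadm4*. On this scale 3 genes (0.0183%) passed, 2 lower and 1 higher in HOM, and nothing is read from this for the 7, since this contrast chose them. Within groups and litters the levels of *Prr23a1*, *B9d1* and *Tuba3b* still varied inversely with log2 total reads (r of -0.45, -0.43 and -0.23), WT was the deepest group by median, and the part of depth in these differences was not tested. The median difference was 1.70 over the 7 members and 0.09 over all genes tested, a gap that the choice of the genes set in advance. In an RNA library of 1 embryo, a higher level in each cell and a higher level in 1 of the cells cannot be told apart.

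Relative to the same WT embryos, HET1 was higher by 2.71 for *B9d1*, 1.93 for *Prr23a1*, 1.53 for *Tuba3b*, 0.65 for *Gm3550*, 0.61 for *Abcb9* and 0.11 for *Cadm4*. HET2 was higher by 2.08 for *Tuba3b*, 2.07 for *B9d1*, 1.91 for *Prr23a1*, 0.55 for *Gm3550* and 0.41 for *Abcb9*, and the difference was 0.00 for *Cadm4*. The fitted standard errors of the HET2 differences were 0.57 for *Prr23a1*, 0.67 for *Tuba3b* and 0.61 for *B9d1*. These differences share the WT embryos with the choice of the genes and were not tested. For *Prr23a1*, *Tuba3b* and *B9d1*, both heterozygous groups, although they carry a paternal copy of *Dppa2* and *Dppa4*, had means nearer to HOM than to WT. In HET2 this rested, for *Prr23a1* and *Tuba3b*, on 2 embryos of the first litter. Of the other 3, all lay nearer to the WT mean for *Prr23a1*, and 2 for *Tuba3b*. For *Gm3550*, *Cadm4* and *Gm42467* both were nearer to WT, and for *Abcb9* HET2 was nearer to WT and HET1 midway. These placements depend on the scale. On deposited values HET1 minus WT was 1.56 for *Cadm4*, 1.63 for *Gm3550*, 1.98 for *Abcb9* and 1.11 for *Gm42467*, each nearer to HOM than to WT, and HET2 minus WT was 1.44 for *Gm3550*, also nearer to HOM, and 0.25 for *Cadm4*.

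Within the 2 litters that hold both, HOM had the higher mean for all 7 genes, which was fixed for *Cadm4* and *Gm42467*, since every HET2 embryo lay on the floor, and in the second litter for *Abcb9*. In the first litter (3 HOM and 4 HET2 embryos) HOM minus HET2 was 1.17 for *Abcb9*, 0.80 for *Gm42467*, 0.60 for *Prr23a1*, 0.36 for *Gm3550*, 0.31 for *Tuba3b*, 0.23 for *Cadm4* and 0.08 for *B9d1*. The second litter holds 7 HOM embryos and a single HET2 embryo, and its differences ran from 0.25 for *Gm42467* to 1.68 for *B9d1*. HOM embryos took part in the choice, and their higher means here were not tested.

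Whether the father's genotype and litter mattered among heterozygotes was tested by HET1 against HET2, whose means the choice did not use. The spread in this fit was taken from all 44 embryos, including the WT and HOM embryos of the choice. With only HET1 and HET2 in the fit, the standard error for *Prr23a1* was 0.64, against 0.56. Across all genes, 2 of 16412 (0.0122%) passed (limma, Benjamini-Hochberg adjusted p under 0.05), and no member was among them. At an unadjusted p under 0.05, 701 of all genes (4.27%) and no member passed. *Cadm4* had an unadjusted p of 0.016 on deposited values (1.31, limma adjusted p = 0.44), where 11.3% of all genes had one under 0.05, and of 0.027 with voom (1.33, adjusted p = 0.45), where 10.1% had. HET1 minus HET2 was 0.02 ± 0.56 (standard error) for *Prr23a1*, -0.55 ± 0.67 for *Tuba3b*, 0.19 ± 0.40 for *Abcb9* and 0.10 ± 0.47 for *Gm3550*. For *B9d1* it was 0.63 ± 0.61 and for *Cadm4* 0.11 ± 0.20, with an adjusted p of 1 for each of these 6 in limma. *Gm42467* lay on the floor in all HET1 and HET2 embryos and *Cadm4* in all but 1, so *Gm42467* could not differ on this scale and *Cadm4* hardly. With 5 HET2 embryos, differences of about 1 on the log2 scale were within the error for *Tuba3b* and *B9d1*.

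The 2 HET1 litters, whose embryos share the mating type and genotype, were compared in a fit with a mean for each group and litter. Of all genes 2721 (16.6%) passed between them, 1907 higher in the first and 814 higher in the second (1483 and 1181 after re-centring embryos on their medians), and no member was among these. *Gm42467*, without reads in HET1, could not be. This count is not comparable with that between HET1 and HET2, which comes from another fit and other numbers of embryos. *B9d1* was lower in the first litter by a log2 difference of -1.31 ± 0.56 (limma, adjusted p = 0.11), with a mean of 5.06 against 6.37. *Tuba3b* was at -1.24 ± 0.66 (adjusted p = 0.21 in limma), *Gm3550* at 0.54 ± 0.44 (adjusted p = 0.46) and *Prr23a1* at -0.43 ± 0.57 (adjusted p = 0.70). *B9d1* passed with the floor set at 3 reads of the shallowest embryo (adjusted p = 0.049, with 12.4% of all genes called) and after re-centring (adjusted p = 0.039, with 16.2% called). *Cadm4* passed on log2(RPM + 1), with 1.35 and an adjusted p of 0.032, where 3038 genes (18.5%) passed. That is the gene detected in 6 of 7 and 1 of 8 embryos of these litters.

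**Figure D3:**
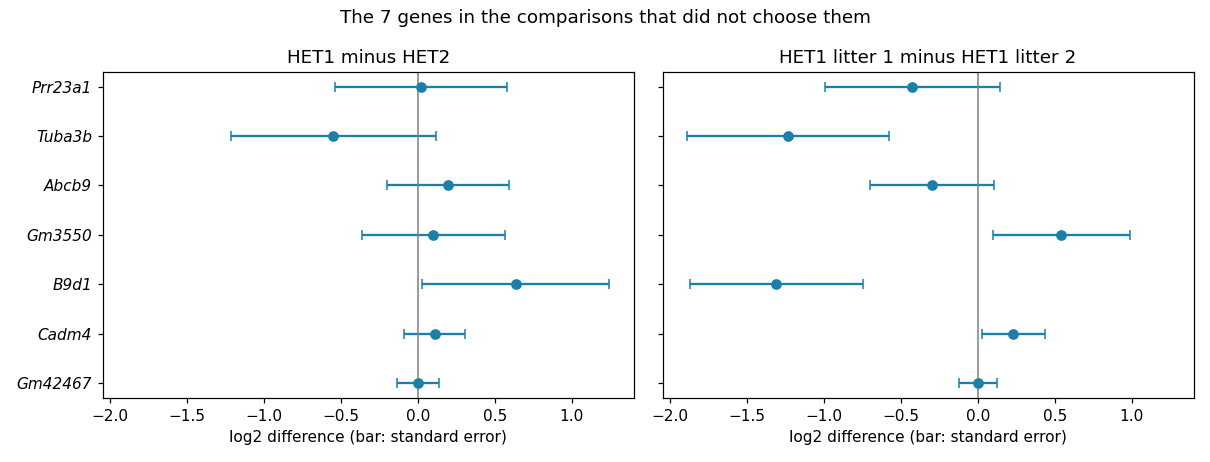
Fitted log2 difference (horizontal axis) with its standard error for each of the 7 genes, HET1 minus HET2 on the left and the first minus the second HET1 litter on the right. On the left each of the 7 lies within 1 log2 unit of 0, and on the right *B9d1* and *Tuba3b* lie lowest at -1.31 and -1.24.

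Genes related to the members by family or complex were compared with the same fits, HOM against WT included. They were listed for their relation to the 7 genes with earlier results of these data known, so their direction between HOM and WT is not independent of that choice. Of 30 relatives tested, 0 passed between HOM and WT and 6 had an unadjusted p under 0.05, as had 2379 of all 16412 genes (14.5%, limma, 3 genes called). With litter as a random effect in limma, 956 of all genes (5.8%) had one under 0.05, and 2 genes were called. Their median difference was 0.17, against 0.09 over all genes, so most of all genes lay above 0 as well. The counts of relatives above 0 are therefore not read as a shift of a family. Among 6 alpha-tubulins, 5 had a difference above 0. *Tuba1c* stood at 1.54 ± 0.48 (adjusted p = 0.15) and *Tuba1b* at 1.26 ± 0.44 (adjusted p = 0.19). *Tuba4a* stood at 0.70 ± 0.51 (adjusted p = 0.53) and *Tuba3a*, which shares stretches with *Tuba3b*, at 0.79 ± 0.51 (adjusted p = 0.47) in limma. *Tuba1a* lay the other way, at -0.68 ± 0.46 (adjusted p = 0.49).

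Of 13 other genes of the ciliary transition zone tested, 10 lay above 0 with a median of 0.19, where all genes had a median of 0.09. *Tmem216*, a membrane protein of this zone, had the largest difference, 1.99 ± 0.46, with means of 5.41 in HOM and 3.42 in WT (limma, adjusted p = 0.085). *Cep290* stood at -0.62 ± 0.46 (adjusted p = 0.53). *Tmem107* stood at 1.23 ± 0.46 (adjusted p = 0.21), and *B9d2*, which encodes a partner of the B9d1 protein, at 0.15 ± 0.23 (adjusted p = 0.81). *Tmem231* stood at 0.23 ± 0.50 between HOM and WT (adjusted p = 0.88 in limma), and was the 1 relative that passed between the HET1 litters, at 2.26 ± 0.48 (adjusted p = 0.001). Of 7 other transporters of the Abcb family tested, 5 lay above 0, the highest of them *Abcb10* at 1.08 ± 0.45 (adjusted p = 0.27), while *Abcb1b* and *Abcb6* lay at 0.11 and 0.29. The adhesion genes *Cadm1*, *Nectin2* and *Nectin3* stood at -0.07, 0.32 and -0.35. *Prr23a3* stood at 0.08 ± 0.35 (adjusted p = 0.97), with 91 reads over WT and 40 over HOM embryos. *Prr23a2* had 0 reads in WT and 12 in HOM embryos and did not pass the filter. Between HET1 and HET2, 0 of the 30 relatives passed and 1 had an unadjusted p under 0.05, against 4.27% of all genes.

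Co-variation was read from the deviations of each embryo from the mean of its group and litter, over 43 embryos (the HET2 embryo alone in its litter has no deviation). The embryos share library preparation and differ in depth, so r is given as a description. *Tuba3b* and *B9d1* varied together with a Pearson r of 0.56 (Spearman rho 0.57), *Prr23a1* and *Tuba3b* with 0.47 (0.44) and *Prr23a1* and *B9d1* with 0.44 (0.40). Without the 2 embryos farthest from the median of the first-named gene, r was 0.57, 0.40 and 0.44. In the 15 HET1 embryos alone, r was 0.58 for *Tuba3b* with *B9d1*, 0.49 for *Prr23a1* with *Tuba3b* and 0.51 for *Prr23a1* with *B9d1*. The deviations of *Prr23a1* and *B9d1* also followed log2 total reads, with r of -0.45 and -0.43, and that of *Tuba3b* with -0.23. After regression on log2 total reads, the 3 pairs stood at 0.53, 0.42 and 0.30.

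Outside these 3 genes the members varied largely apart. The median r over all 21 pairs was 0.07, and 16 pairs were above 0. *Cadm4* and *Gm42467* lay on the floor in most embryos, so pairs with them could hardly vary together. Over the 10 pairs without them the median r was 0.14, and 9 were above 0. With all genes, the median r of a member ran from -0.05 for *Gm42467* to 0.10 for *Tuba3b* and 0.13 for *Prr23a1*. *Abcb9* with *Cadm4* reached 0.31 and *Abcb9* with *B9d1* 0.27. *Gm3550* stood between -0.15 and 0.03 with each of the other 6, the lowest of them with *Prr23a1*. Among 16286 genes, *B9d1* was the 132nd most like *Tuba3b* and *Tuba3b* the 317th most like *B9d1*, so many genes outside the 7 followed each of them more closely. For *Prr23a1*, *Tuba3b* ranked only 1752nd, and no member reached 0.55, the r that 5% of all genes exceeded with *Prr23a1*. The same mark was 0.45 for *Tuba3b*, which 2 members exceeded, and 0.49 for *B9d1*, which 1 member exceeded.

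**Figure D4:**
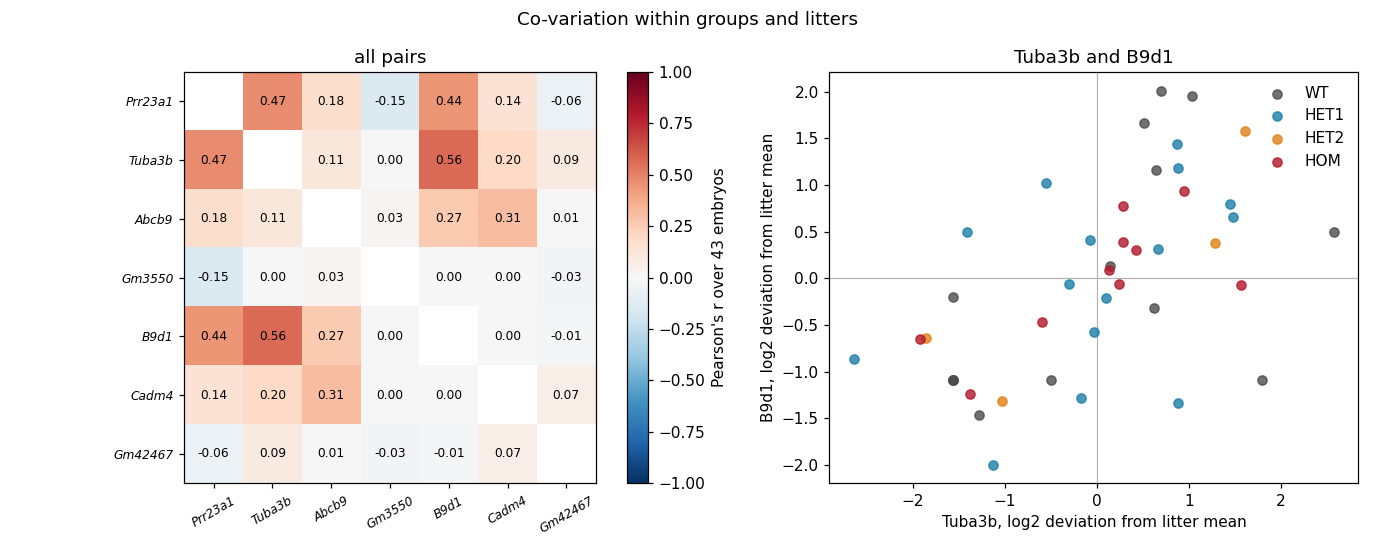
Left, Pearson's r between each pair of the 7 genes over 43 embryos, from deviations of log2 RPM from the mean of group and litter (colour, scale -1 to 1). Right, these deviations for *Tuba3b* (horizontal axis) and *B9d1* (vertical axis), 1 point per embryo, where r was 0.56.

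The genes most alike in this measure were *Cnot8* (r = 0.79), *AC113003.1* (0.79) and *Cenpa* (0.78) for *Prr23a1*, and *Pkm* (0.71), *Arl3* (0.71) and *Cdca3* (0.67) for *Tuba3b*. For *B9d1* they were *Cyth1* (0.77), *Polr2c* (0.76) and *Siva1* (0.75). *Cnot8* encodes a deadenylase subunit, *Cenpa* the centromeric histone, *Pkm* a pyruvate kinase and *Polr2c* a subunit of RNA polymerase II. *Abcb9* was most like *Gm42987* (0.65), *Kng1* (0.65) and *Abhd3* (0.63), and the genes like *Gm3550* included *Ccdc155* (0.64) and *Prss36* (0.63). For *Cadm4* the 3 were *Gm12333* (0.92), *Wdr66* (0.89) and *Fibp* (0.87), and without the 2 embryos farthest from its median r fell to 0.63, 0.53 and 0.80. For *Gm42467* they were a gene that the table lists as Sep-01 (0.72), *Gm26520* (0.71) and *Atcayos* (0.65). Of the adjoining genes, *Epn2*, 4317 bp from *B9d1*, showed an r of 0.59 with it, while *B9d1os*, at 84 bp, stood on the floor in every embryo. For the other adjoining genes with a value, r ran from -0.17 (*Sbds* with *Gm42467*) to 0.35 (*Gfra3* with *Gm3550*).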

How the data were processed

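Groups and litters were taken from the labels. The authors trimmed reads (Trim Galore 0.6.5, cutadapt 2.3), mapped them to GRCm38 with HISAT2 2.1.0, kept those with a MAPQ of at least 20, and counted them over mRNA probes in SeqMonk, ignoring strand. The deposited values are log2 RPM over the total reads of each embryo. Reads behind each value were recovered from the value of a gene without reads (99.9997% of values within 0.05 of a whole read), and values were raised to a common floor of 1.86. Genes with a mean deposited log2 RPM of at least 0 (16412) were fitted with limma 3.58.1 in R 4.3.3 (lmFit, eBayes with trend, 4 groups or 8 group-by-litter means in 1 model, Benjamini-Hochberg threshold 0.05). The fits were tested on simulated counts. p-values measure the spread between embryos, which are separate animals of few litters. Intervals and floors cover counting error only, as reads carry no molecular identifiers.

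The members and the lists of relatives and markers were chosen with earlier results of these data known. The rule for named genes took all 7 members, genes that overlap or adjoin them, the 3 most alike genes of each, from each list of relatives those called and otherwise the 3 with the highest mean, and *Dppa2* and *Dppa4*. *Tuba1a*, *Tuba1b*, *Tmem107*, *B9d2*, *Abcb6*, *Ovgp1* and the 3 genes called beside the members were named after their values were seen. Alternatives covered the floor, the filter, scaling, weights, depth, litter and the embryos used. Of the genes this rule takes, 2 are not reported here.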

Additional observations from a re-analysis of the deposited data

Results flagged for a closer look

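In *Cadm4*, 1 HOM embryo stood at 3.83 log2 RPM, apart from the next highest of the 10 at 2.61. This came from Dixon's test for a lone value, applied to 12 groups of a gene and a set of embryos. For normal values, chance gives about 1 in 20 of these. Of the 10 embryos 3 stood above the floor and the others were tied on it, so that rate does not hold here. The embryo at 3.83 held 7 reads, as did 2 other HOM embryos of greater depth.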

How the results depend on the processing

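The count of genes that passed between HET1 and HET2 was small and unstable. It was 2, and became 0 with deposited values, log2(RPM + 1), a mean of at least 3, voom, only the 2 groups in the fit, litter as a random effect, or without the first HET1 litter. It was 1 with a floor at 3 reads or no filter, 4 after re-centring, 20 with array weights, 45 without the second HET1 litter, and 6 to 10 without 1 of the HET2 embryos. In 129 such fits of the 7 genes 0 passed (*Gm42467* could not on the common floor), and the smallest adjusted p was 0.44 (limma). Signs of these small differences turned. For *Prr23a1* HET1 minus HET2 became -0.0034 on log2(RPM + 1), -0.15 with the floor at 3 reads, -0.10 re-centred, -0.52 with log2 total reads as a covariate, -0.21 without the second HET1 litter, and ran from -0.44 to 0.58 without 1 HET2 embryo. For *Gm3550* it became -0.016 on log2(RPM + 1), -0.030 re-centred, -0.089 in voom, -0.20 with array weights, -0.074 with total reads, -0.049 with litter as a random effect, -0.15 without the first HET1 litter, and ran from -0.13 to 0.36 without 1 HET2 embryo. *Tuba3b* turned to 0.026 without the first HET1 litter and ran from -0.95 to -0.085 without 1 HET2 embryo. *B9d1* turned to -0.065 without the second HET1 litter, stood at 0.11 with total reads as a covariate, and ran from 0.13 to 1.15 without 1 HET2 embryo, and *Abcb9* from 0.085 to 0.39.

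Between the HET1 litters the count stayed within 1.5 times, and of 66 fits of the members 3 passed, those given above. With the mating number as a replicate block, 2 genes passed between HET1 and HET2 and 0 of the 30 relatives between HOM and WT. The number names different litters in each mating type and pairs only HET2 with HOM, by shared litters. Across genes the differences between litters 1 and 2 had an r of 0.52 for HET2 and HOM, which share litters, 0.40 for WT and HET1, -0.25 for WT and HET2, -0.37 for WT and HOM, -0.50 for HET1 and HET2 and -0.70 for HET1 and HOM. The median HET1 minus HET2 over all genes was 0.06, and 0.43 on deposited values. The median difference from WT over the 7 genes was 1.70 in HOM, 0.65 in HET1 and 0.55 in HET2. It became 2.85, 1.98 and 1.44 on deposited values, and 0.66, 0.089 and 0.018 with the floor at 3 reads. *Gm42467*, at -0.0007 in both heterozygous groups, turned to 1.11 in HET1 and 0.51 in HET2 on deposited values, and to 0.28 in HET2 on log2(RPM + 1). The median r of the 21 pairs was 0.07, and 0.20 with the floor at 3 reads.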
